A study of Mus musculus with 6 samples.

Results

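The smallest pancreatic islets of mice given the serpin B13 antibody B29 were compared with the smallest islets of mice given a control IgG antibody. The comparison takes 2 of the 6 arrays of the study: 1 array of islets under 100 µm in diameter after B29 and 1 array of islets under 100 µm after IgG. All mice were BALB/c. Each received 4 intraperitoneal injections of 25 µg of antibody, 100 µg in all, given every other day starting at 2 weeks of age. The mice were killed 2 weeks after the final dose, when they were 5 weeks old. The other 4 arrays hold islets of 100 to 200 µm and over 200 µm after B29 and after IgG, 1 array for each, and serve here only to place the levels of the small islets. The labels do not say how many mice gave islets to an array or whether the 3 diameter classes came from the same mice. With 1 array against 1 there is no replicate, so differences within the small islets are given as sizes, with no test.

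B29 binds serpin B13, a protease inhibitor of the clade B serpins whose targets include the cysteine protease cathepsin L. An islet is a cluster of beta, alpha, delta and PP cells supplied by capillaries and embedded in acinar tissue, whose cells make the digestive enzymes. Reg genes encode small secreted lectins of the pancreas and gut, first described in regenerating islets, and acinar cells also make them. Immediate early genes encode transcription factors and signalling proteins whose transcription starts directly after a stimulus, without new protein synthesis, in beta cells by depolarization and calcium entry among other signals. Heat shock genes encode chaperones induced when proteins unfold, and SOCS proteins are induced by cytokines and shut off the receptors that induced them.

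A probe was kept where its signal stood above the array's own negative controls (detection p under 0.05) on at least 1 of the 2 arrays, which held for 17027 of 45281 probes. Of these, 13983 were detected on both arrays, 1931 on the B29 array only and 1113 on the IgG array only. The kept probes stood for 10709 named genes, and 2347 of them had no gene name. The arrays were alike in overall signal: 35.2% of probes were detected on the B29 array and 33.4% on the IgG array, with median raw intensities of 74.4 and 74, close to the control medians of 72.1 and 71.8. All levels below are the authors' normalized log2 values, on which a difference of 1 is 2-fold, and the lowest detected level was 4.47 on the B29 array and 4.52 on the IgG array. Endocrine markers identified both samples as islets, with Ins2 at 13.97 and 14.20, Gcg at 13.65 and 13.76 and Sst at 12.65 and 13 in B29 and IgG islets. Acinar markers were high on both arrays too, with the elastase gene Cela2a at 14.20 and 13.97, so both samples contained exocrine RNA. In RNA from whole islets, fewer cells of a type and less RNA per cell cannot be told apart.

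Most transcripts differed little between the antibodies. Over the 17027 probes the difference, B29 minus IgG, had a median of 0.0 and an SD of 0.31, and 90.2% of probes lay within 0.5 of 0. At least 2-fold higher with B29 were 63 probes (0.37% of those kept), which stood for 55 named genes, and at least 2-fold lower were 33 probes (0.194%), which stood for 26 named genes. Among the higher probes, that of Cracr2b, was not detected on the IgG array, and against the detection floor it was at least 1.85-fold higher. Counted per gene by its brightest probe, 49 of 10709 genes (0.458%) were at least 2-fold higher and 22 (0.205%) at least 2-fold lower. A difference of 0.5 or more was reached by 618 genes upward (5.77%) and 518 downward (4.84%), and these shares are the background for the groups below. Of all genes, 50.2% were higher and 49.6% lower with B29 by any amount, the background for counts of higher and lower members. Both these shares and the group counts keep genes detected on 1 array only. Such a gene entered through that array, which favours a difference toward it. The spread of the differences grew from an SD of 0.26 at mean levels under 5 to 0.37 at levels of 7 to 9.

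**Figure D1:**
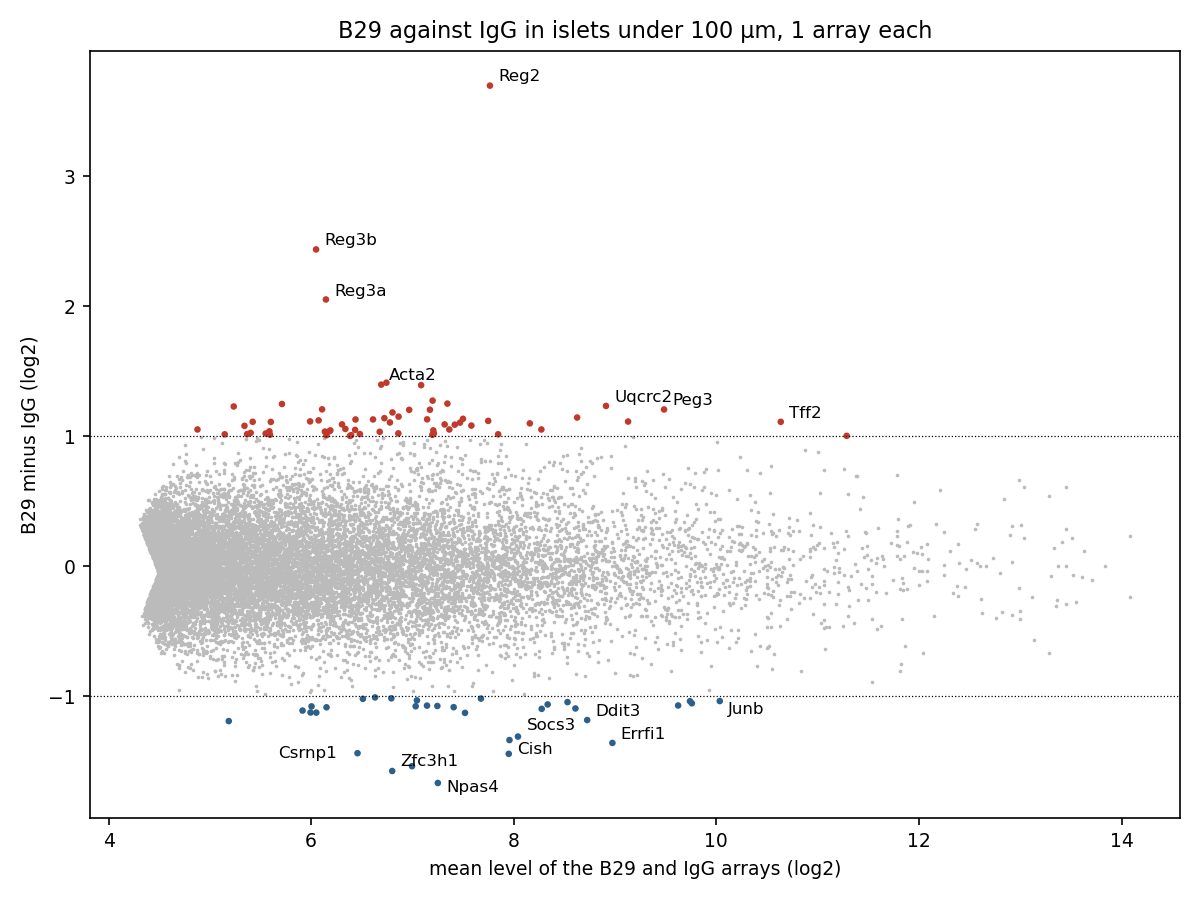
Difference between B29 and IgG in islets under 100 µm (y axis, log2) against the mean level of the 2 arrays (x axis, log2) for 17027 detected probes. Red and blue points are at least 2-fold higher and lower with B29, dotted lines mark 2-fold, and Reg2, Reg3b and Reg3a lie above all other points.

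The Reg genes stood furthest apart. Of 7 Reg genes looked for, 5 were detected, all on both arrays and all higher with B29, with differences from 0.61 to 3.70 and a median of 2.05. Reg2 had a level of 9.61 in B29 islets and 5.92 in IgG islets, a 13-fold difference. Before normalization its raw intensity was 798 on the B29 array and 109 on the IgG array. Reg3b, whose product is an antibacterial lectin in the gut, had levels of 7.27 and 4.83 in B29 and IgG islets (5.42-fold), with raw intensities of 197 and 82.8. Reg3a stood at 7.17 with B29 and 5.12 with IgG (4.15-fold), and Reg3d at 7.19 and 6.16 (2.05-fold). Reg1, the member made in bulk by acinar cells, was near the top of the range on both arrays, at 13.34 with B29 and 12.73 with IgG, and differed by 0.61. In IgG islets Reg2, Reg3b and Reg3a thus lay in the lowest part of the range, above the detection floor of 4.52, whereas Reg1 was abundant with either antibody. Reg3g and Reg4 were not detected on either array.

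The 250 bases before the start of the 2 genes with the greatest differences are given because they carry the core promoter elements a reader would look for (RefSeq, GRCm38.p6, each on the strand of its gene). Capitals mark a TATA box (TATAAA), which starts 30 bases before the start of Reg2 and 29 before that of Reg3b, and in Reg3b also a match to the STAT site TTCNNNGAA, 129 bases before the start.
Reg2 promoter, chr6:78404905-78405154, + strand: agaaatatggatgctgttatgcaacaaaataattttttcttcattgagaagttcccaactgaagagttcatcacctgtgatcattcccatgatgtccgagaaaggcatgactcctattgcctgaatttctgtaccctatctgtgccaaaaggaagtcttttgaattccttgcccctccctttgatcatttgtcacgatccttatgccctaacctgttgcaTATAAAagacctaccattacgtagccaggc
Reg3b promoter, chr6:78370635-78370884, + strand: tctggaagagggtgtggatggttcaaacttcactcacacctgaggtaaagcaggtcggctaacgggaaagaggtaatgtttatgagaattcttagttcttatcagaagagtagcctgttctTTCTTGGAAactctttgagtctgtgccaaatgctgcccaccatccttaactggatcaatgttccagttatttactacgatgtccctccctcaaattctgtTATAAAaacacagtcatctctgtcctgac
Of the 5 detected Reg genes, 3 had TATAAA in the window from 250 bases before to 50 after the start, against 13.6% of all 32851 mouse promoters of that length, and 2 had TTCNNNGAA, against 8.3%. These are matches of letters on either strand and describe the sequence only.

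**Figure D2:**
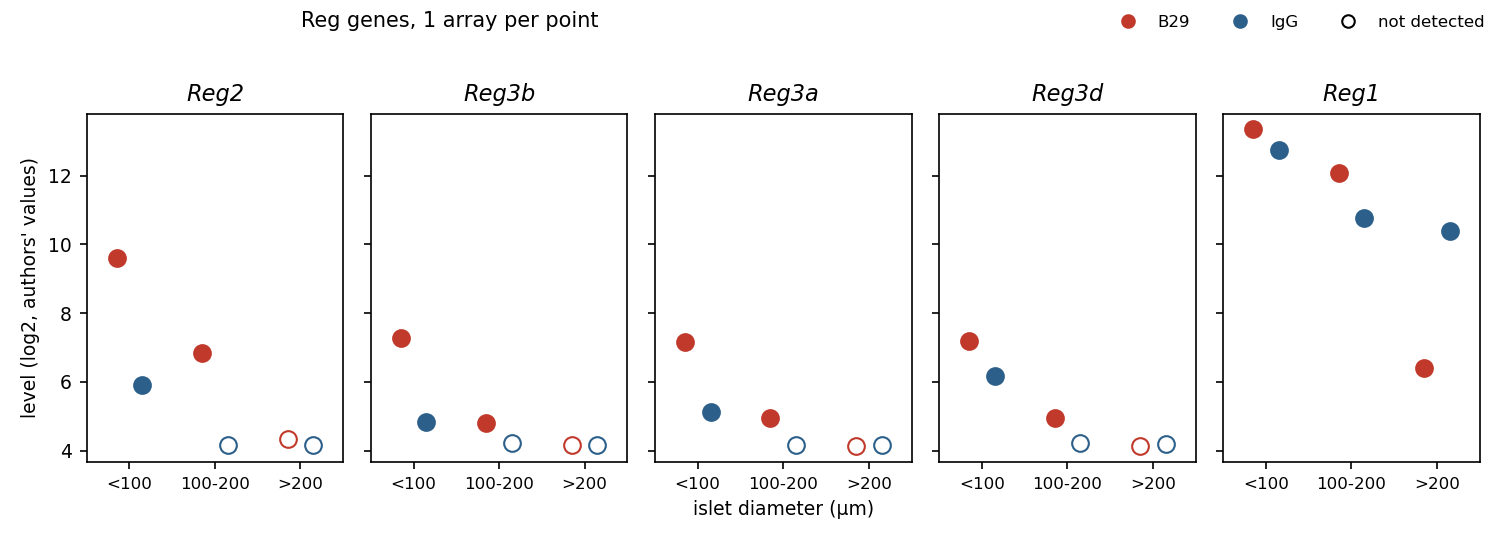
Levels of the 5 detected Reg genes (y axis, authors' log2 values) by islet diameter (x axis, µm) on single arrays, B29 in red to the left and IgG in blue, with open circles where the probe was not detected. The B29 array under 100 µm is the highest of the 6 arrays for every gene shown.

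Within the B29 arrays the Reg genes were lower in larger islets. Reg2 measured 9.61, 6.83 and 4.35 in B29 islets under 100, of 100 to 200 and over 200 µm, against 5.92, 4.16 and 4.17 in IgG islets, and was not detected on either array over 200 µm or on the IgG array of 100 to 200 µm. Reg3b was 7.27, 4.81 and 4.17 with B29, against 4.83, 4.21 and 4.17 with IgG, with the same pattern of detection. Reg1 was 13.34, 12.06 and 6.40 with B29, against 12.73, 10.76 and 10.40 with IgG. All 5 detected Reg genes had their highest level of the 6 arrays in B29 islets under 100 µm, where 18.8% of all named genes did. All 5 were already higher with B29 on the same 2 arrays, so this rank is no separate result. The same holds for the ranks of other lists below. In the large islets the order of the antibodies was turned for Reg1.

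Acinar genes moved with the Reg genes on the same arrays. Of 36 acinar genes looked for, 32 were detected, 31 of them on both arrays; 26 were higher with B29 and 3 lower, against 50.2% and 49.6% of all genes, and 11 were higher by 0.5 or more, against 5.77%. Their median difference was 0.29, and their summed level (log2) was 17.81 with B29 and 17.61 with IgG. Some bulk enzyme genes were near the top of the scale and hardly differed. Amy2a5, pancreatic amylase, read 13.84 on both arrays, and Cpa1, a carboxypeptidase, 12.66 on both. The trypsinogen gene Try4 read 13.57 with B29 and 13.65 with IgG. Other enzyme genes were higher with B29, such as Ctrc by 0.33 and Cela3b by 0.54. Acinar genes of lower level also varied in their difference. Spink1, the trypsin inhibitor of acinar cells, measured 11.64 and 10.89 in B29 and IgG islets, Prss2 12.13 and 11.43 and Dmbt1 11.43 and 10.69. The pancreatic disulfide isomerase gene Pdia2 stood at 11.32 and 10.43, and Prss3 at 11.41 and 11.14. The lipase gene Pnliprp2 was at 11.81 and 11.64 on its brightest probe, but another of its probes differed by 0.70.

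The acinar transcription factors followed the same direction. Ptf1a, which with Rbpjl drives the digestive enzyme genes, had levels of 7.44 with B29 and 6.29 with IgG on one probe and 6.16 and 5.05 on the other, so both probes put it at least 2-fold higher. Rbpjl stood at 8.19 and 7.60 and Bhlha15, a regulator of the secretory apparatus, at 8.37 and 7.95. All 8 detected tissue kallikrein genes, serine proteases of exocrine glands, were higher with B29 (median 0.50), but only 6 were detected on both arrays. The list was led by Klk1b27 at 11.79 and 10.78 and Klk1b5 at 11.44 and 10.56. These kallikreins are near-identical copies whose probes may share targets. In B29 islets under 100 µm 28 of the 32 acinar genes and 8 of the 8 kallikrein genes had their highest level of the 6 arrays, against 18.8% of all genes. Over 200 µm the acinar median was -3.04, with summed linear levels of 8390 on the B29 array and 52510 on the IgG array. The detected Reg genes differed by 0.61 to 3.70, the acinar genes by -0.27 to 1.15 and the kallikrein genes by 0.06 to 1.00. A dimmer probe of Klk1b5 differed by 1.41. The part of acinar tissue in the difference of the Reg genes was not tested.

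Outside these families, the genes at least 2-fold higher with B29 had varied roles. Tff2, a trefoil peptide of mucous secretion, measured 11.19 in B29 islets and 10.08 in IgG islets. Hamp2, a hepcidin gene of liver and pancreas, stood at 7.78 and 6.57. Cldn10, a tight junction claudin, was higher on all 3 of its probes, by 1.25, 0.81 and 0.71. Tff2, Hamp2 and Cldn10 were brighter in small islets than over 200 µm with both antibodies, as the acinar genes were. Muc1, an epithelial surface mucin, did not reach 2-fold, at 7.08 and 6.29. The duct markers as a list did not lean one way: of 9 detected, 4 were higher and 5 lower (median -0.08), with Cldn3 lower at 6.23 and 6.92 and the duct transcription factor Sox9 equal at 7.50 and 7.48, while Krt19 and Cftr were not detected.

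Among genes of islet cells, Cartpt, which encodes an islet and brain neuropeptide, had levels of 7.40 with B29 and 6.21 with IgG, and its other probe 6.62 and 6.31. Pcsk2, the prohormone convertase that makes glucagon and helps to make insulin, stood at 8.19 and 7.22. Pak3, a p21-activated kinase gene, was at 8.71 and 7.61, the sorting receptor gene Sorl1 at 6.87 and 5.81, and Pik3r1, the regulatory subunit of PI 3-kinase, at 7.72 and 6.70 on one probe, with a difference of 0.24 on its brighter one. Brd3, a bromodomain reader of acetylated histones, measured 7.78 and 6.39, Trim41 7.84 and 6.56 and Uqcrc2, a core subunit of respiratory complex III, 9.53 and 8.29. The proteasome subunit gene Psma4 (8.80 and 7.75) was also at least 2-fold higher. The 17 other detected genes of the oxidative phosphorylation list lay between -0.34 and 0.29, while Atp5mpl, an ATP synthase subunit gene outside that list, stood at 9.69 and 8.57.

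Immediate early genes were lower with B29 nearly throughout. Of 37 looked for, 30 were detected, 28 of them on both arrays; 29 were lower and 1 higher, 13 were lower by 0.5 or more, where 4.84% of all genes were, and 5 by 1 or more, where 0.205% were, and the median difference was -0.44. Npas4, the activity-dependent transcription factor of neurons and beta cells, had a level of 6.42 in B29 islets and 8.08 in IgG islets, 3.17-fold lower. Csrnp1 was at 5.74 and 7.18 and Atf3, a stress-induced member of the ATF family, at 6.96 and 8.08. The AP-1 genes Junb (9.52 and 10.55), Fos (11.45 and 12.20) and Jun (8.92 and 9.45) were lower by 1.04, 0.75 and 0.53. Arc, whose product remodels synapses in neurons, stood at 6.13 and 7.14, Egr1 at 11.70 and 12.37 and Egr4 at 5.51 and 6.33. Smaller differences were found for Fosb (9.98 and 10.28), the phosphatase gene Dusp1 (11.02 and 11.48) and Zfp36 (10.01 and 10.13). Ier2 went the other way, at 5.22 and 4.57. Of the 30 genes, 8 had further detected probes, 11 in all, of which 8 were lower and 3 higher (median -0.19).

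Npas4 and Fos promoters are shown because both carry TGACG, the core letters of the cyclic AMP response element bound by CREB (RefSeq, GRCm38.p6, 250 bases before the start, each on the strand of its gene; capitals mark TGACG or its reverse complement CGTCA).
Npas4 promoter, chr19:4989972-4990221, - strand: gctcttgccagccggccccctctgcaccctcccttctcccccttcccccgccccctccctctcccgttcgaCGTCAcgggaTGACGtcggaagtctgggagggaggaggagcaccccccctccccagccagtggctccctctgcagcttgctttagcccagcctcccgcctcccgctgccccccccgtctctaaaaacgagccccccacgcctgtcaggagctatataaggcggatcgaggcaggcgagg
Fos promoter, chr12:85473640-85473889, + strand: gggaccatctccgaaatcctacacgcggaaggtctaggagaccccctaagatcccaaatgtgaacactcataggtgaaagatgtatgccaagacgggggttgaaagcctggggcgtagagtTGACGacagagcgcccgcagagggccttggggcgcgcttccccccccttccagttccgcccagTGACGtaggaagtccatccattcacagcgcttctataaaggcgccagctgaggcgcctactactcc
In Npas4 the matches start 179 and 169 bases before the start, and in Fos 129 and 66 bases before it. Among the immediate early genes 23 had a promoter in the RefSeq table, and 22 of their 33 promoters (66.7%) held TGACG on either strand, against 20.8% of all 32851 promoters and 30.2% of the 10207 promoters of genes detected here. It was not particular to this list, as the detected heat shock genes held it in 12 of 23 promoters (52.2%). The full element TGACGTCA, which contains these letters, was in only 2 of the 33 immediate early promoters (6.06%). It was in 3.1% of promoters of detected genes and in 1.79% of all. Of the 26 genes at least 2-fold lower with B29, 17 had a RefSeq promoter, and 12 of their 26 promoters (46.2%) held TGACG. These 17 genes include the immediate early genes Npas4, Csrnp1, Atf3 and Junb, already counted above. Of the 55 genes at least 2-fold higher, 46 had a promoter. Their 70 promoters held it in 20 cases (28.6%), beside 30.2% for genes detected here.

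**Figure D3:**
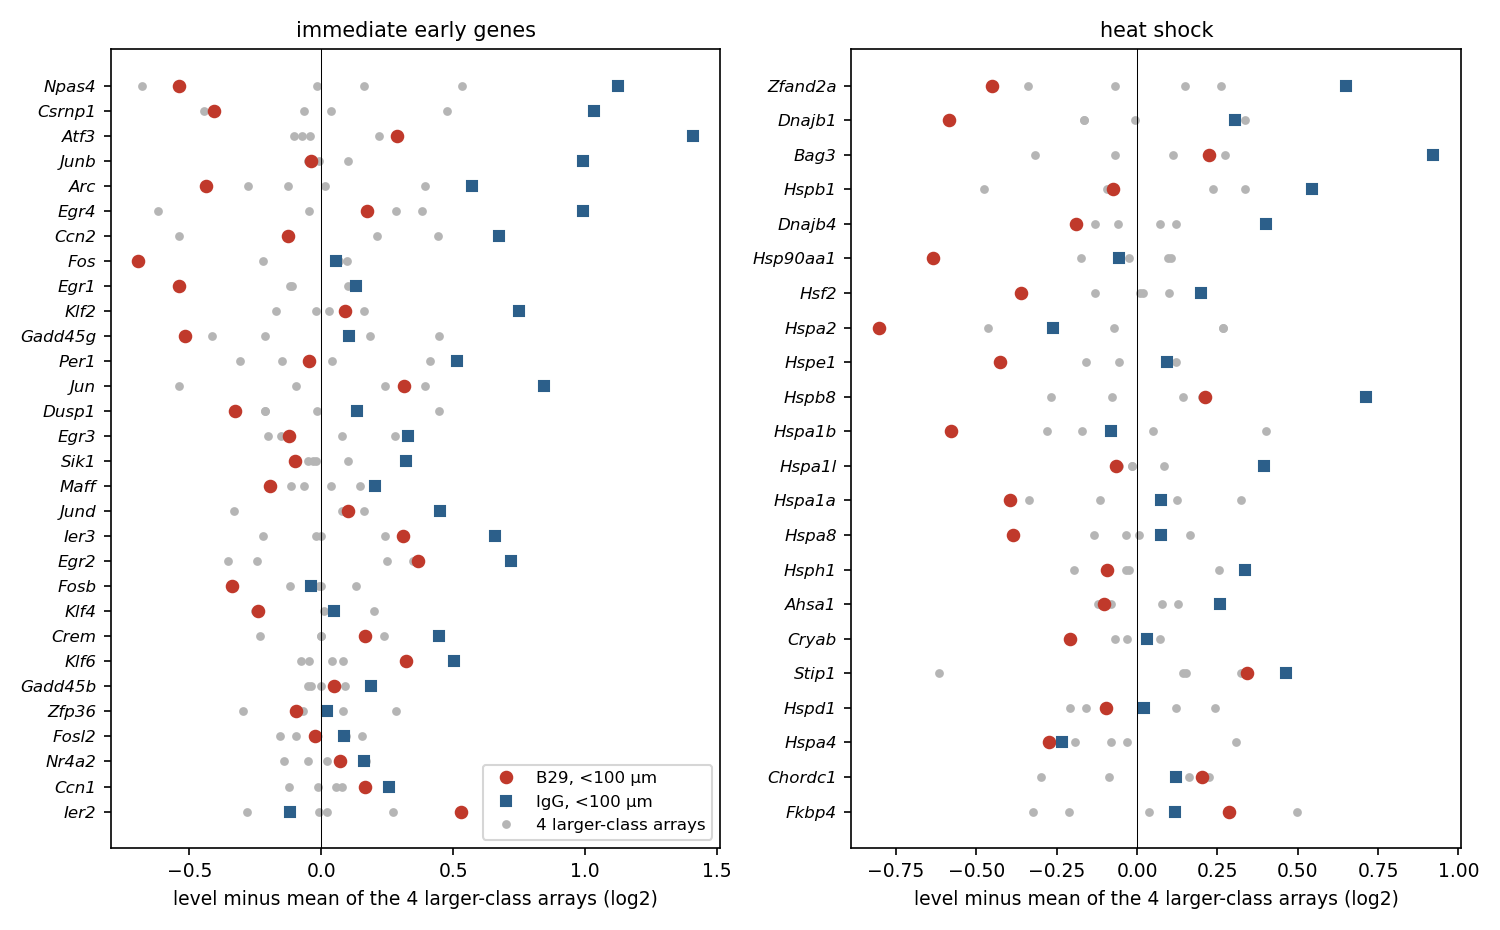
Levels of the detected immediate early genes (left) and heat shock genes (right), each as the level minus the mean of the 4 arrays of larger islets (x axis, log2), ordered by the difference between B29 and IgG in small islets. Red circles are the B29 array and blue squares the IgG array under 100 µm, and grey points the 4 arrays of larger islets; the blue squares lie to the right of the red circles for 29 of 30 and 20 of 22 genes.

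The immediate early levels were next set beside those in larger islets. For 21 of the 30 immediate early genes (70.0%) the IgG array under 100 µm was the highest of the 6, as it was for 19.8% of all genes, and for 8 (26.7%) the B29 array under 100 µm was the lowest, as for 17.2% of all genes. Against the larger islets of the same antibody, the B29 array had a median difference of -0.02 and the IgG array one of 0.37. Atf3 illustrates this: its 8.08 in IgG islets under 100 µm compares with 6.96 in B29 islets under 100 µm and 6.57 to 6.89 on the other 4 arrays. Junb likewise measured 10.55 in small IgG islets and 9.51 to 9.66 on the 5 other arrays. Fos and Egr1 had the other pattern, with 11.45 and 11.70 in small B29 islets as the lowest of their 6 levels. The immediate early median between the antibodies was -0.01 at 100 to 200 µm and -0.00 over 200 µm.

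Heat shock genes were lower with B29 as well. Of 26 looked for, 22 were detected, 18 of them on both arrays; 20 were lower and 2 higher, 10 were lower by 0.5 or more, against 4.84% of all genes, and the median difference was -0.48. Zfand2a, an arsenite- and heat-inducible zinc finger gene, had levels of 8.06 and 9.16 in B29 and IgG islets. Dnajb1, the HSP40 cochaperone, stood at 11.09 and 11.98, Bag3, the HSP70 partner in selective autophagy, at 8.91 and 9.61, and the small heat shock protein gene Hspb1 at 6.98 and 7.60. The inducible HSP70 genes Hspa1a (10.85 and 11.32) and Hspa1b (6.42 and 6.92), near-identical copies, and the constitutive Hspa8 (11.40 and 11.86) were lower by 0.46 to 0.50. Hsp90aa1, the inducible HSP90, measured 6.54 and 7.12. The mitochondrial chaperonin gene Hspd1 (8.42 and 8.54) and Hspa4 (4.56 and 4.60) hardly differed, and the HSP90 cochaperone gene Fkbp4 (9.54 and 9.37) was slightly higher. Of 9 further probes of these genes, 8 were lower (median -0.41). The exception was a probe of Hsf2 (0.39), whose brighter probe differed by -0.56. Heat shock genes detected on 1 array only stay in the counts above. Here both arrays departed from the larger islets. The IgG array was the highest of 6 for 10 genes (45.5%), against 19.8% of all genes. The B29 array was the lowest for 13 (59.1%), against 17.2% of all genes.

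Hspb1 is shown as an example of the heat shock element in this list (RefSeq, GRCm38.p6). Capitals mark 2 matches to the inverted pair GAANNTTC, which start 117 and 97 bases before the start of the gene.
Hspb1 promoter, chr5:135887669-135887918, + strand: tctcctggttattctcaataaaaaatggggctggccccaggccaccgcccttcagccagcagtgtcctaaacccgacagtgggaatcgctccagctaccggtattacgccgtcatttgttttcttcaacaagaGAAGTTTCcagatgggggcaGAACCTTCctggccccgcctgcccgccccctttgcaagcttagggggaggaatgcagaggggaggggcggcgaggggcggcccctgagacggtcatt
The pair occurred in 11 of the 23 promoters of detected heat shock genes (47.8%) and in 7.86% of all promoters, and the longer heat shock triple, which adds another repeat to the pair, in 5 (21.7%) and 0.603%. The longer form was found in promoters of Chordc1, Hspd1, Hspe1 and Hsph1, whose differences were 0.08, -0.12, -0.52 and -0.44, so holders of the element were not all among the lowest.

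Genes of cytokine feedback did not move as a group, yet 2 of them were among the lowest of all. Of 17 detected genes of the STAT5 and SOCS list, 10 were lower and 7 higher (median -0.06). Cish, a SOCS protein induced by STAT5, had a level of 7.23 with B29 and 8.67 with IgG, and it was lower with B29 in the larger classes too, by 1.82 at 100 to 200 µm and 1.35 over 200 µm. Socs3, the inhibitor induced by IL-6 type cytokines through STAT3, measured 7.39 in B29 islets and 8.70 in IgG islets under 100 µm. On the other 4 arrays Socs3 ran from 7.76 to 8.42, with 8.42 and 7.86 in B29 and IgG islets of 100 to 200 µm, so the small islets held both the lowest and the highest of its 6 levels. Socs6 stood at 4.86 and 5.63. Socs2, the SOCS protein of growth hormone signalling (7.31 and 6.96), the kinase gene Jak2 (6.25 and 5.80), Bcl2l1 (4.95 and 4.73) and the growth hormone receptor gene Ghr (8.51 and 8.42) were higher by 0.10 to 0.45. The STAT5 target Ccnd2, a cyclin that beta cells need to divide, measured 9.15 and 9.60.

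Socs3 carries 1 STAT site, TTCTTAGAA, 154 bases before its start, in capitals (RefSeq, GRCm38.p6).
Socs3 promoter, chr11:117969367-117969616, - strand: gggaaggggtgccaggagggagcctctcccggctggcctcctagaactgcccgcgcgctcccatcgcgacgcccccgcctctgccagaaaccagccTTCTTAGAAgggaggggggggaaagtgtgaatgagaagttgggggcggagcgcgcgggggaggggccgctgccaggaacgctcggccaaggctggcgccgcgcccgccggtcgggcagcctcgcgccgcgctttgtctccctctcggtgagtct
In Cish the matches TTCCTGGAA and TTCTTGGAA lie at the start itself and 11 bases after it. Over the 13 genes of this list with a RefSeq promoter, 4 of 19 promoters (21.1%) held TTCNNNGAA, against 8.3% of all promoters and 6.69% of those of detected genes.

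The NF-kB list leaned the same way as the immediate early genes. Of 13 detected genes, 12 of them on both arrays, 11 were lower with B29 and 2 higher, against 49.6% and 50.2% of all genes. Of the 13, 4 were lower by 0.5 or more, against 4.84% of all genes, and the median was -0.20. Nfkbiz, an inducible nuclear coactivator of NF-kB, had levels of 7.80 and 8.87 in B29 and IgG islets, the deubiquitinase gene Tnfaip3 4.80 and 5.64, the inhibitor gene Nfkbia 7.10 and 7.75 and Lcn2, a secreted siderophore-binding protein, 4.54 and 5.20. These are feedback and acute phase genes of the pathway. The subunit genes Rela (7.86 and 7.97) and Nfkb1 (5.42 and 5.48) and the cytokine genes Il1b (4.80 and 4.73) and Tnf (4.59 and 4.80) differed by at most 0.20. The IgG array under 100 µm was the highest of the 6 for 8 of the 13 genes (61.5%), against 19.8% of all genes.

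The endoplasmic reticulum stress list held genes of both directions. Of 25 detected genes, 16 were lower and 9 higher with B29 (median -0.21). Ddit3, the transcription factor CHOP, stood at 8.13 with B29 and 9.32 with IgG on one probe and at 6.71 and 7.78 on the other. Atf4, the translation-controlled factor upstream of Ddit3, measured 9.45 and 10.40, its target Trib3 4.80 and 5.49, and Herpud1, a component of the degradation machinery, 10.75 and 11.39. The luminal chaperone genes Hsp90b1 (10.16 and 10.95) and Calr (6.51 and 7.23) were lower, but Hspa5, the chaperone BiP, was at 5.33 and 5.22. Chac1, a glutathione-degrading enzyme and another ATF4 target, went the other way, at 8.35 and 7.50, as did the chaperone gene Dnajb11 at 9.05 and 8.32. The second probe of Atf4 differed by -0.38, and another probe of Herpud1 by -0.195.

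Other genes at least 2-fold lower with B29 included Errfi1, the feedback inhibitor of the EGF receptor, at 8.30 and 9.65 in B29 and IgG islets. The other genes of EGF receptor feedback lay between -0.39 and 0.45, with 5 of 9 above 0. Zfc3h1, part of a nuclear RNA degradation complex, measured 6.01 and 7.59, and the 4 other arrays put it at 6.98 to 7.44. Hypoxia and glycolysis genes had a median of -0.18, with 13 of 21 below 0. Cited2, which competes with hypoxia-inducible factors for their coactivator, stood at 7.80 and 8.62 on its brightest probe and differed by -0.20 and -0.19 on the other 2. The glycolytic genes Pgam1 (5.46 and 6.22), Tpi1 (9.20 and 9.59) and Gapdh (9.38 and 9.74) were lower while Pkm (9.41 and 9.13) and Pfkm (7.82 and 7.37) were higher.

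Red cell globins, markers of blood in the tissue, were lower with B29. Hba-a1 measured 10.01 in B29 islets and 10.78 in IgG islets, Hbb-b1 10.12 and 10.64 and Hbb-b2 4.55 and 5.41, and 9 further Hbb-b1 probes, which may detect several beta globin genes, were all lower (median -0.53). For all 3 genes the B29 array under 100 µm was the lowest of the 6, as for 17.2% of all genes. Endothelial genes did not share this: of 15 detected, 8 were lower and 7 higher (median -0.02), with Plvap at 9.21 and 9.23 and Esam at 8.46 and 7.82. The part of blood in the lower immediate early and heat shock levels was not tested.

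**Figure D4:**
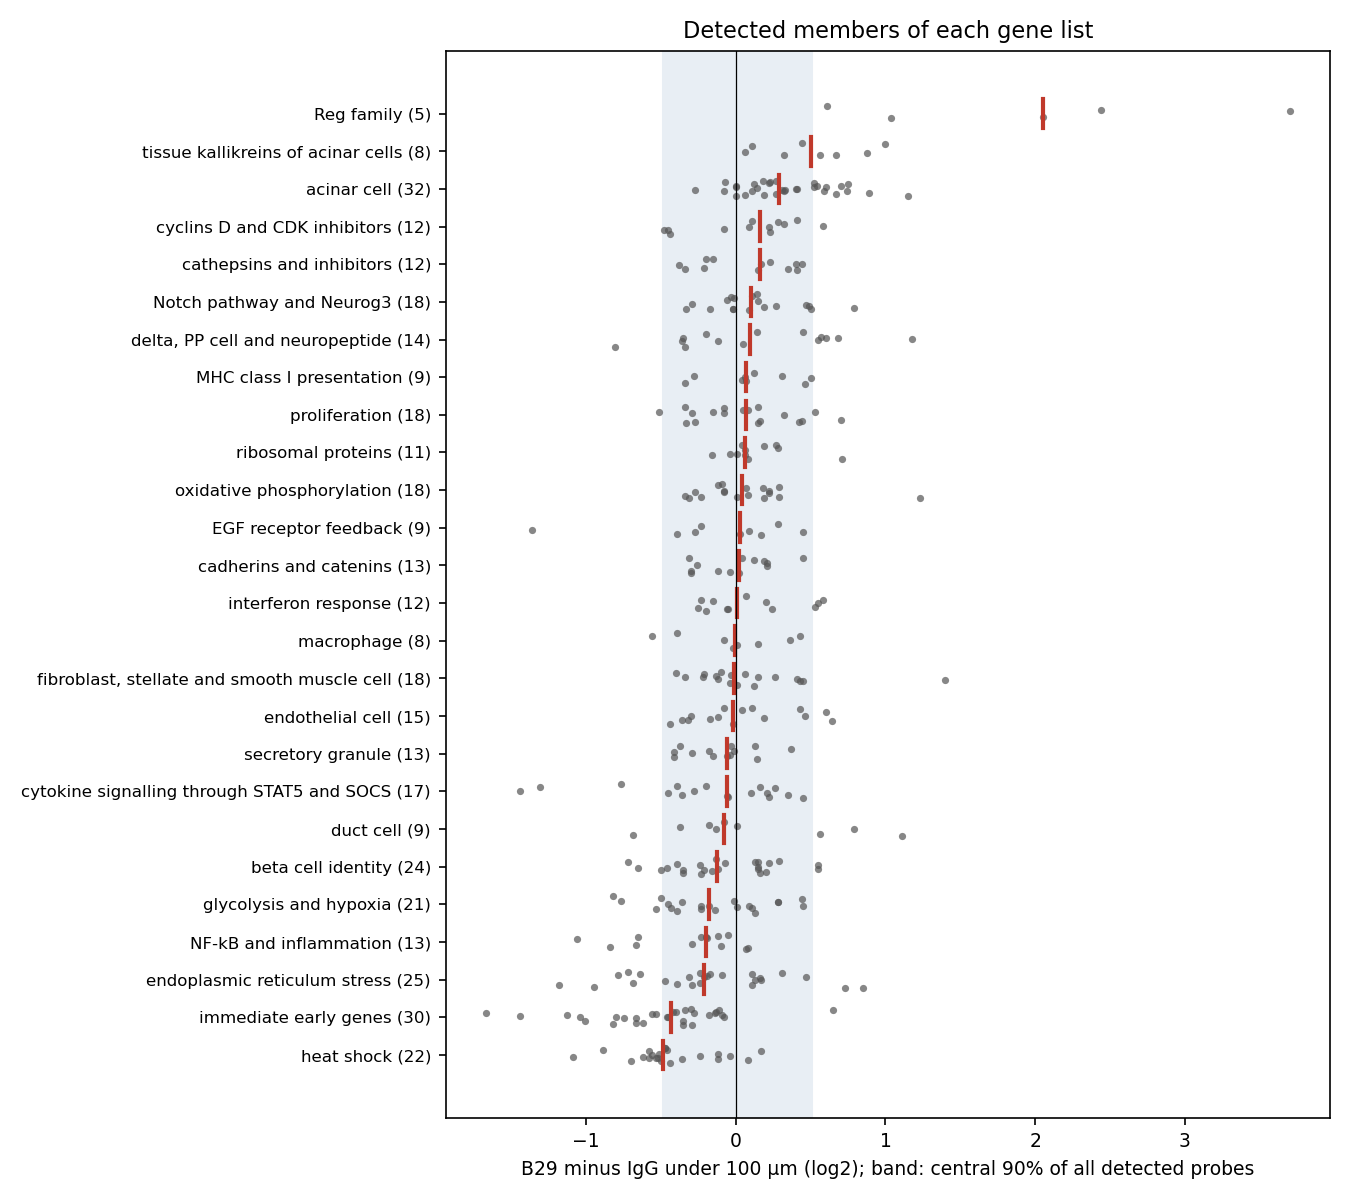
Difference between B29 and IgG in islets under 100 µm (x axis, log2) for the detected members of gene lists with more than 7 of them and of the Reg family, with the number of members in brackets. Each grey point is a gene, red bars are medians and the shaded band holds the central 90% of all detected probes; the Reg median is 2.05 and those of immediate early and heat shock genes are -0.44 and -0.48.

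Most transcripts of the antibody's target and of the proteases, adhesion proteins and Notch pathway differed by less than 0.5 or were not detected. Serpinb13 was not detected, with detection p-values of 0.556 on the B29 array and 0.975 on the IgG array, and as the antibody acts on the protein its probe does not check the treatment. Ctsl, cathepsin L, was at 4.81 and 5.15 in B29 and IgG islets, Cdh1, E-cadherin, at 8.03 and 8.07, Ctnnb1, beta-catenin, at 8.64 and 8.89 and Notch1 at 5.40 and 5.43. Neurog3, the transcription factor of endocrine progenitors, measured 6.45 and 5.98, a difference of 0.47 that falls just short of the 0.5 reached by 5.77% of genes. Among 18 detected genes of the Notch pathway, 13 of them on both arrays, 10 were higher and 8 lower. Of the 18, 2 were higher by 0.5 or more, against 5.77% of all genes, and 0 were lower by as much. The largest difference was that of Notch4, an endothelial receptor, at 7.89 and 7.10. Of 12 cathepsins and inhibitors 7 were higher, none by 0.5 or more, with the asparaginyl protease gene Lgmn at 6.62 and 6.17 and the cystatin gene Cst3 at 11.11 and 11.49. The 13 cadherin, catenin and junction genes ran from -0.31 to 0.45.

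Hormone and identity genes of the endocrine cells lay on both sides of 0. Of 24 detected beta cell genes, 14 were lower and 10 higher with B29 (median -0.12), and of 14 delta cell, PP cell and neuropeptide genes 6 were lower and 8 higher (median 0.09). Ucn3, a marker of mature beta cells, stood at 10.01 in B29 islets and 10.66 in IgG islets. Abcc8, the sulfonylurea receptor, was at 8.89 and 9.39. Nnat measured 6.32 and 7.03 on its brightest probe and differed by -0.15 on a dimmer one. The zinc transporter gene Slc30a8 (10.27 and 9.72) and Rfx6 (8.61 and 8.06) were higher, and Pdx1 (8.14 and 7.98), Nkx6-1 (9.23 and 9.07) and the glucose transporter gene Slc2a2 (9.89 and 9.67) differed by at most 0.22. Ins2 lay at the top of the scale, where differences are compressed, and Ins1 had no named probe. Among other hormones, Ppy, pancreatic polypeptide, measured 11.41 and 12.21, Sst 12.65 and 13 and Pyy 12.44 and 12.80, whereas Npy (8.26 and 7.66), the ghrelin gene Ghrl (6.70 and 6.13) and Penk (5.21 and 4.53) were higher. Of 13 secretory granule genes 10 were lower, none by 0.5 or more, with Chgb at 10.49 and 10.90 and Scg5 at 11.63 and 12.03. The B29 array under 100 µm was the lowest of the 6 for 12 of 24 beta cell genes and 8 of 13 granule genes, against 17.2% of all genes. The IgG array under 100 µm was the lowest for 7 of the beta cell genes and 0 of the granule genes. Both small arrays lay below larger islets of the same antibody. The beta cell medians were -0.22 with B29 and -0.17 with IgG, and the granule medians -0.34 and -0.28.

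Several other lists had medians close to 0. Those of proliferation (0.07, with Mki67 at 5.48 and 5.33 and the replication gene Mcm2 at 5.77 and 5.07), cyclins and CDK inhibitors (0.16, with Cdk4 at 7.45 and 6.87 and Cdkn1a at 7.20 and 7.68), interferon response (0.01), MHC class I (0.07) and class II (0.03), oxidative phosphorylation (0.04), ribosomal proteins (0.06), alpha cells (-0.08), fibroblasts and smooth muscle (-0.01) and macrophages (-0.00) were all within 0.2 of it. In the interferon list Gbp3 (5.25 and 4.67), Usp18 (6.94 and 6.39) and Ifitm3 (8.44 and 7.91) were higher by more than 0.5. Among macrophage genes Lyz1 stood at 6.43 and 7.0, while Adgre1, Cd68 and Ptprc were not detected on either array. The class II genes, which had a median of 1.08 in islets of 100 to 200 µm, included H2-Eb1 at 6.33 and 6.92. B cell markers were dim, with 3 detected and Igk-C at 4.56 and 4.94, and the T cell list had 2 detected members, Thy1 (5.63 and 5.66) and Cd3e (4.51 and 4.26). The Schwann cell, adipocyte and mesothelial lists had 1 each, Mbp, Lep and Upk3b, with differences of -0.14, -0.14 and -0.08. The Y-linked genes Eif2s3y (6.07 and 6.24) and Kdm5d (4.63 and 4.81) were detected on both arrays and differed by less than 0.2.

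How far a difference could be relied on was gauged from genes with several probes. For 3001 genes with at least 2 detected probes, the differences of the 2 brightest probes had a Pearson's r of 0.0853, as a description across genes measured on the same 2 arrays, and differed from each other with an SD of 0.43. The agreement grew with signal, to an r of 0.235 over the 171 genes with both probes at level 8 or above. Of 22 probes at least 2-fold higher whose gene had another probe, 15 had that probe on the same side of 0 and 4 had it past 1.5-fold. Of 10 such probes at least 2-fold lower, 7 and 3 did. A single probe past 2-fold therefore often stood alone: Acta2, smooth muscle actin, differed by 1.40 on 1 probe and by 0.16, 0.27 and -0.34 on the others, the imprinted gene Peg3 by 1.21 and -0.65, the proteasome subunit gene Psmb7 by 1.09 on its dimmest probe and by -0.30, -0.03 and -0.04 on the others, and the lamin gene Lmna by -1.54 on 1 of its 6 probes and by -0.46 to 0.49 on the rest.

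Few genes had every detected probe past 1.5-fold in 1 direction. With B29, 6 were higher: Ptf1a and Cldn10, given above, Igfbp4, a binding protein for insulin-like growth factors (0.78 and 0.63), Itgb4, an epithelial integrin (0.70 and 0.68), Vwa8 (0.77 and 0.74) and Parm1 (0.59 and 0.61). Another 8 were lower: Ddit3, given above, the splicing factor gene Srsf5 (-0.98 and -0.83), the phosphatase catalytic subunit gene Ppp1cb (-0.62 and -0.96), Kbtbd2 (-0.67 and -1.08), Tctn3 (-0.68 and -0.75), Ankrd12 (-0.66 and -0.58), Kctd12 (-0.61 and -0.95) and Wdr20 (-0.61 and -0.84). For Kctd12 and Wdr20 the dimmer probe was not detected on the B29 array, and set against the detection floor it was at least 1.34-fold lower. Each Reg gene, Npas4, Socs3, Cish and Atf3 was represented by a single detected probe.

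**Figure D5:**
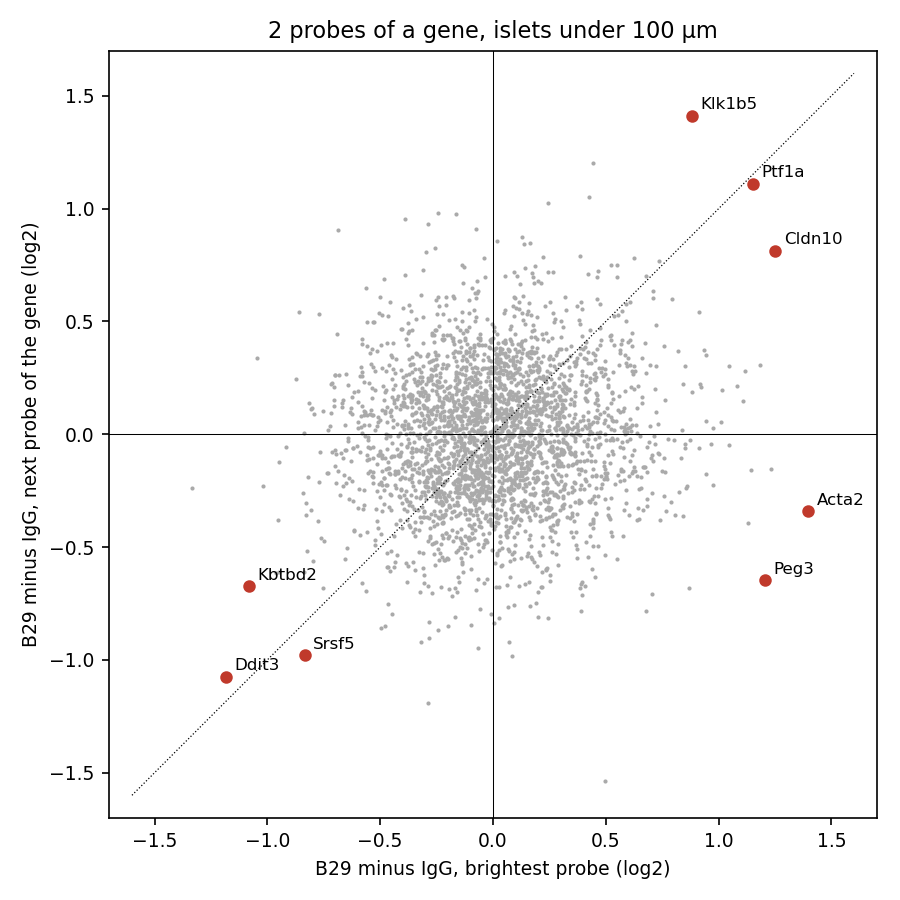
Difference between B29 and IgG in islets under 100 µm (log2) for the brightest probe (x axis) and the next probe (y axis) of 3001 genes with at least 2 detected probes, with the diagonal dotted. Ptf1a, Cldn10, Klk1b5, Ddit3, Srsf5 and Kbtbd2 lie near it at both ends, whereas Acta2 and Peg3 have a second probe below 0.

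Whether the small islets differed from the larger ones in their response was examined with limma across all 17027 probes. The difference between B29 and IgG under 100 µm was set against the mean of the differences in the 2 larger classes, whose own disagreement gave the error, with 1 residual degree of freedom. No probe passed in either direction (0.0% of 17027; 793 had an unadjusted p under 0.05, and the smallest adjusted p was 0.862). With so little to estimate the error from, this does not show that the classes responded alike. Reg3b departed by 2.14 (SE 0.34, limma adjusted p = 0.862) and Reg2 by 2.27 (SE 1.02). Both were undetected on 3 of the 4 arrays of larger islets, so their differences there and the errors rest largely on background values. Brd3 departed by 1.77 (SE 0.24), Uqcrc2 by 1.73 (SE 0.24), Zfc3h1 by -1.74 (SE 0.25) and Socs3 by -1.56 (SE 0.34), all with an adjusted p of 0.862. Cish departed by 0.15 (SE 0.30).

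The probes past 2-fold in small islets were then read in the larger classes, which are separate arrays. Of the 63 higher probes, 62 were detected at 100 to 200 µm, where 45 (72.6%) were above 0, against 47.6% of all probes, and 14 (22.6%) by 0.5 or more, against 3.59%. Over 200 µm 53 were detected and 27 (50.9%) were above 0, against 51.7% of all probes. The 33 lower probes were all detected in both classes: 16 (48.5%) were below 0 at 100 to 200 µm, against 52.2% of all, and 22 (66.7%) over 200 µm, against 48.2%. Of these, 9 (27.3%) were lower by 0.5 or more over 200 µm, against 5.37%. The lower probes thus leaned the same way in large islets. The 62 higher probes include some detected at 100 to 200 µm on the B29 array only, among them those of Reg2, Reg3a, Reg3b, Reg3d and Cabp2. Such probes were counted through the array on which they were high, so their place above 0 is no separate result. How far the higher probes lean in medium islets without them was not counted. In medium islets the higher probes past 2-fold again were those of Reg2, which was undetected on the IgG array there, and Acta2. The lower one was that of Cish. Over 200 µm those of Cish and Errfi1 were past 2-fold lower again.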

How the data were processed

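Per the labels' protocols, RNA from Trizol and RNeasy columns was made into biotinylated cRNA (Ambion MessageAmp) for Illumina arrays. The deposited raw table holds intensity values that, as their medians show, were neither background-corrected nor normalized, and a detection p-value per probe and array. Its 46255 rows are 45281 probes and 974 control rows; 22 rows with words in place of a signal were not used. The log2 values are the authors' own, and the submitters' processing notes name limma 3.34.9. They look background-corrected and quantile-normalized: neqc in limma 3.58.1 (R 4.3.3, offset 16), run on the raw intensities, came within 0.0466 of them.

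Probes with a detection p-value under 0.05 on either array under 100 µm were kept. Names came from the platform's probe table and RefSeq (28620 probes by Entrez gene, 2637 by transcript, 4527 as given). A gene was represented by its brightest detected probe. In counts of probes past 2-fold, undetected values were left unchanged; the fold of a named gene against an undetected probe was set against the lowest detected level. The difference under 100 µm was tested against the mean of the larger classes with limma (lmFit, eBayes, Benjamini-Hochberg at 0.05), which was also tested on simulated data. Promoters, from 250 bases before to 50 after the start, came from RefSeq (GRCm38.p6).

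Named genes were drawn from the 20 highest and 20 lowest differences and from genes whose probes all passed 1.5-fold one way. Others came from the Reg, immediate early, heat shock and STAT5 lists, up to 4 members of each other list and the genes of the study's subject. Not every gene of these sets is named. Genes outside these sets were named after their values were seen. The members and lists were chosen with earlier results of these data known.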

Additional observations from a re-analysis of the deposited data

How the results depend on the processing

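With 1 array per group the number of arrays limits the precision, and no array could be left out. No paired analysis was possible because the labels carry no replicate numbers and under 100 µm there is 1 array per antibody; the test against larger islets used the difference between the antibodies within each class. The 63 higher and 33 lower probes became 7 and 8 without background correction, 11 and 10 with normexp and an offset of 50, and 573 and 450 at 1.5-fold; the cause was not tested. The share of higher probes among them was 65.6%, against 46.7% without background correction and 52.4% with normexp. Without the Reg, acinar and kallikrein lists, chosen after seeing the data, the counts were 55 and 33. The Reg median of 2.05 became 1.12 without background correction and 1.30 with normexp, the immediate early median of -0.44 became -0.28, -0.29 and, over all detected probes of its members, -0.35, and the heat shock median of -0.48 became -0.32 and -0.36. The acinar median of 0.29 became 0.44 with median centring. No scaling moved the median of all probes by more than 0.01. Of 1332 values of 222 named genes under these alternatives, 1329 kept their sign, as did all 234 of the 39 named genes past 2-fold. Of 248 values of 31 list medians, 218 kept their sign and 18 moved by more than the spread between probes of a gene, scaled to the size of the list. No probe passed the test against larger islets under any of its 6 alternatives, with smallest adjusted p-values from 0.688 to 0.961.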
